A study of Mus musculus with 18 samples.

Results

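The 10 genes described here encode the main parts of the MHC class I antigen presentation route in the mouse. They were taken by symbol: Nlrc5, H2-K1, H2-D1, B2m, Tap1, Tap2, Tapbp, Psmb8, Psmb9 and Psmb10. All 10 were found among the 35976 rows of the deposited expression table, and all 10 were among the 14129 genes that reached 1 TPM (transcripts per 1000000, corrected for gene length) in at least 6 libraries and were therefore tested. The table covers 18 bulk RNA-seq libraries of mouse colon collected on day 2, in 3 groups of 6. In the first group colitis had been induced with TNBS, a hapten that inflames the colon, and the mice received ISM012-042, which the series title calls a gut-restricted PHD inhibitor, PHD being the oxygen-sensing enzymes that target hypoxia-inducible factor for breakdown. The second group had TNBS colitis and received vehicle, and the third was a sham group without colitis. The labels give no strain, sex, age, dose or genotype, and do not state that each sample is a separate animal, so the p-values cover the spread among these libraries, which may be technical in part.

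Class I molecules carry short peptides from proteins made inside the cell to its surface, where CD8+ T cells and natural killer cells read them. The proteasome cuts proteins into peptides, the TAP transporter moves the peptides into the endoplasmic reticulum, tapasin holds empty class I molecules beside TAP, and the heavy chain leaves for the surface once it has bound a peptide and the light chain. Interferon-gamma is known to raise these genes together. It also makes cells swap the 3 constitutive catalytic subunits of the proteasome for inducible ones, which gives the immunoproteasome.

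Most of these genes lie close together. H2-K1 (chr17:33996012-34000619), Tapbp (chr17:33919478-33929290), Psmb9 (chr17:34182030-34187330), Tap1 (chr17:34187556-34197225), Psmb8 (chr17:34198195-34201454), Tap2 (chr17:34204479-34216321) and H2-D1 (chr17:35263094-35267497) are in the mouse MHC region of the GRCm38.p6 build. B2m (chr2:122147687-122153082), Nlrc5 (chr8:94434335-94527272) and Psmb10 (chr8:105935728-105938392) are elsewhere. RefSeq promoter windows of GRCm38.p6, running from 250 bases before to 50 bases after a gene's start, were matched for 8 of the 10 genes. RefSeq lists 2 windows for H2-K1; the one printed is measured from a start at base 34000347, which lies inside the gene's full span given above, so the window lies within that span too. The windows of the 2 classical heavy chains and of the light chain are printed because these genes varied together across the libraries, and that of Tap1 because it is also most of the Psmb9 promoter. Varying together was not particular to the heavy and light chains. The other 7 genes did so too (Pearson's r of 0.78 to 0.98 in their pairs, against 0.81 to 0.95). Each runs 5′ to 3′ along its own gene, and capitals mark any of 5 motifs on either strand.
H2-K1, chr17:34000298-34000597, minus strand: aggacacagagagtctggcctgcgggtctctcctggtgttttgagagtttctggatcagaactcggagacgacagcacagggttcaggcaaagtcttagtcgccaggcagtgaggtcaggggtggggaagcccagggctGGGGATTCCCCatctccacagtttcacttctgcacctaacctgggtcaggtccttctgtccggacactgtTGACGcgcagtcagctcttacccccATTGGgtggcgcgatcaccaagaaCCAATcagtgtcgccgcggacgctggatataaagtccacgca
H2-D1, chr17:35262844-35263143, plus strand: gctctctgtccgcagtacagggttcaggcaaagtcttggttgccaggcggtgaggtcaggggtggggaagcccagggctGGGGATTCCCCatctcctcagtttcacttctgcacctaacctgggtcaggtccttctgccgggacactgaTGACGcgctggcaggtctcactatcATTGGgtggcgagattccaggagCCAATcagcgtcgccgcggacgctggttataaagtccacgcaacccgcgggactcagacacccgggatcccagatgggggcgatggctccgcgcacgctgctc
B2m, chr2:122147437-122147736, plus strand: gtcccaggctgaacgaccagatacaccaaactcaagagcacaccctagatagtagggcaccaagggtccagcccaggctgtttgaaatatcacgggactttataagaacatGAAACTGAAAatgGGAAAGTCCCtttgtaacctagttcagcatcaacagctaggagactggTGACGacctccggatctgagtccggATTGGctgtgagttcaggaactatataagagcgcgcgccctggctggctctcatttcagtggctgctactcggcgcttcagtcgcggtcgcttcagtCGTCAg
Tap1, chr17:34187306-34187605, plus strand: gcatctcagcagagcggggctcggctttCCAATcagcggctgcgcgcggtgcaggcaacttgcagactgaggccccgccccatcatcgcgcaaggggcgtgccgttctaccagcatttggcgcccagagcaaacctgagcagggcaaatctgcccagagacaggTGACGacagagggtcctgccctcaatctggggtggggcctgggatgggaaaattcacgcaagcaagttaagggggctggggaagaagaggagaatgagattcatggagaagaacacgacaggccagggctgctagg

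The motifs searched on both strands were the core of the interferon-stimulated response element (GAAA, 2 bases of any kind, GAAA), the core of the gamma-activated site (TTC, 3 bases of any kind, GAA), the NF-kB consensus, TGACG, the core of the X2 box of MHC promoters, and CCAAT, the core of the Y box. The NF-kB consensus was found in H2-K1, H2-D1 and B2m, against 8.46% of the 32851 RefSeq windows. In the heavy chains it matched on both strands at 2 overlapping positions. These were window bases 140 to 149 and 141 to 150 in H2-K1, and 80 to 89 and 81 to 90 in H2-D1. Only B2m among the 8 windows held the interferon-stimulated core (window bases 112 to 121), against 3.44% of all windows, and only Psmb8 held the gamma-activated core, against 8.30%. Both cores were matched with no differing base allowed. A window without a match, such as those of H2-K1 and H2-D1, may therefore still hold a variant of the element. TGACG was present in 5 of the 8 windows and CCAAT in 6, against 20.8% and 37.4% of all windows. In H2-K1, H2-D1 and B2m a TGACG stood 25 bases before an ATTGG, counted from first base to first base (window bases 210 and 235, 150 and 175, 173 and 198). This spacing was noticed after the sequences were seen; 31 of the 32851 windows held the pair at this distance on either strand, which is 0.0944%. The Psmb10 window held none of the 5 motifs. Tap1 and Psmb9 are read in opposite directions from starts 226 bases apart (34187556 and 34187330 on chromosome 17), and their windows share 275 bases, so the TGACG and the CCAAT of these windows are the same sites, counted for both genes above. These matches are letters in the windows, not measured binding.

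Depth cannot be read from TPM, so no counting interval can be given. Each library had between 12681 and 14632 genes at 1 TPM or more. The 13 mitochondrial genes took 20.1% to 39.8% of the TPM total in ISM012-042 libraries, 22.4% to 57.8% in vehicle libraries and 29.4% to 42.6% in sham libraries, and Hoxb13, a gene of the distal colon, spanned 0.329 to 219 TPM in ISM012-042, 1.52 to 179 TPM in vehicle and 9.05 to 288 TPM in sham libraries. All 10 epithelial markers were detected, with summed levels of 8774 to 19866 TPM in ISM012-042 libraries, 8538 to 15606 TPM in vehicle libraries and 9432 to 16631 TPM in sham libraries. Neutrophil markers (8 genes) summed to 46.6 to 7054 TPM in ISM012-042 libraries and 191 to 27393 TPM in vehicle libraries, against 7.18 to 27.5 TPM in sham libraries. Among all 14129 genes 584 were lower and 46 higher in vehicle than in sham colons (adjusted p under 0.05 in limma), and 123 were lower and 77 higher in ISM012-042 than in sham colons. This split moved with the scaling, to 1022 lower and 504 higher, and to 619 lower and 156 higher, when libraries were scaled by the median ratio of their genes. For ISM012-042 against sham the majority changed side in other settings, with 398 lower and 729 higher without mitochondrial genes, 938 and 2322 with array weights, 271 and 1108 with Hoxb13 as a covariate, 538 and 1213 with the mitochondrial share as a covariate and 232 and 477 with just these groups fitted.

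Nlrc5 encodes the transactivator that acts at class I promoters and drives the transcription of class I genes. Its level was low in every library. It had 0.495 TPM at the lowest, 1.31 TPM at the median and 5.62 TPM at the highest in ISM012-042 colons (n = 6 in this and every other group), against 0.935, 1.16 and 6.40 TPM in vehicle colons and 0.913, 3.10 and 5.43 TPM in sham colons. In each group the libraries spread from near or below 1 TPM to above 5 TPM, so the 3 groups overlapped throughout.

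The heavy chains H2-K1 and H2-D1 are the classical class I molecules that hold the peptide, and B2m is the light chain that each of them needs. H2-K1 had 253, 393 and 603 TPM (lowest, median, highest) in ISM012-042 colons, 333, 382 and 617 TPM in vehicle colons and 285, 560 and 701 TPM in sham colons. H2-D1 stood at 532, 841 and 1104 TPM in ISM012-042 colons, 721, 813 and 1303 TPM in vehicle colons and 610, 975 and 1192 TPM in sham colons. B2m was the most abundant of the 10, with 1110, 1574 and 2084 TPM in ISM012-042 colons, 1099, 1581 and 3137 TPM in vehicle colons and 895, 2527 and 3298 TPM in sham colons. The ranges of all 3 genes overlapped between groups. For B2m the lowest library of all 18 was in the sham group (library 3), and so was the highest (library 6). Class I genes resemble each other in sequence: of all stretches of 75 bases in the longest GENCODE vM21 transcript, 6.90% of those of H2-D1 and 1.33% of those of H2-K1 also occur in another gene, and how the authors' counting shared such reads is not given in the sources used here.

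Tap1 and Tap2 form the peptide transporter, and Tapbp encodes tapasin. Tap1 had 6.80 TPM at the lowest, 10.9 TPM at the median and 31.2 TPM at the highest in ISM012-042 colons, against 8.93, 13.5 and 49.6 TPM in vehicle colons and 12.98, 35.7 and 62.3 TPM in sham colons. Tap2 had 21.1, 25.9 and 39.9 TPM in ISM012-042 colons, 18.4, 25.2 and 39.0 TPM in vehicle colons and 28.6, 37.6 and 57.8 TPM in sham colons. Tapbp had 78.8, 88.7 and 150 TPM in ISM012-042 colons, 68.6, 86.1 and 151 TPM in vehicle colons and 114, 137 and 195 TPM in sham colons. For Tap2 and for Tapbp, 4 of 6 ISM012-042 libraries and 5 of 6 vehicle libraries lay below the lowest sham library. For Tap1 it was 3 of 6 in each colitis group. ISM012-042 libraries 2 and 3 and vehicle library 1 were the ones that reached into the sham range for all 3 genes.

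The inducible subunits carry the cutting activities of the immunoproteasome: Psmb8 takes the place of Psmb5, Psmb9 that of Psmb6 and Psmb10 that of Psmb7. Psmb8 had 31.2, 53.3 and 133 TPM (lowest, median, highest) in ISM012-042 colons, 40.8, 69.0 and 202 TPM in vehicle colons and 49.5, 109 and 194 TPM in sham colons. Psmb9 had 18.2, 27.6 and 79.6 TPM in ISM012-042 colons, 26.7, 42.6 and 151 TPM in vehicle colons and 35.1, 74.8 and 123 TPM in sham colons. Psmb10 had 81.7, 95.7 and 131 TPM in ISM012-042 colons, 91.3, 102 and 218 TPM in vehicle colons and 97.3, 145 and 169 TPM in sham colons. For all 3 genes the highest level among the 18 libraries was in vehicle library 1 and the lowest in ISM012-042 library 6. Below the lowest sham library lay 4 of 6 ISM012-042 libraries for Psmb9 and for Psmb10 and 2 for Psmb8, and 2 of 6 vehicle libraries for Psmb8 and for Psmb9 and 3 for Psmb10.

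**Figure D1:**
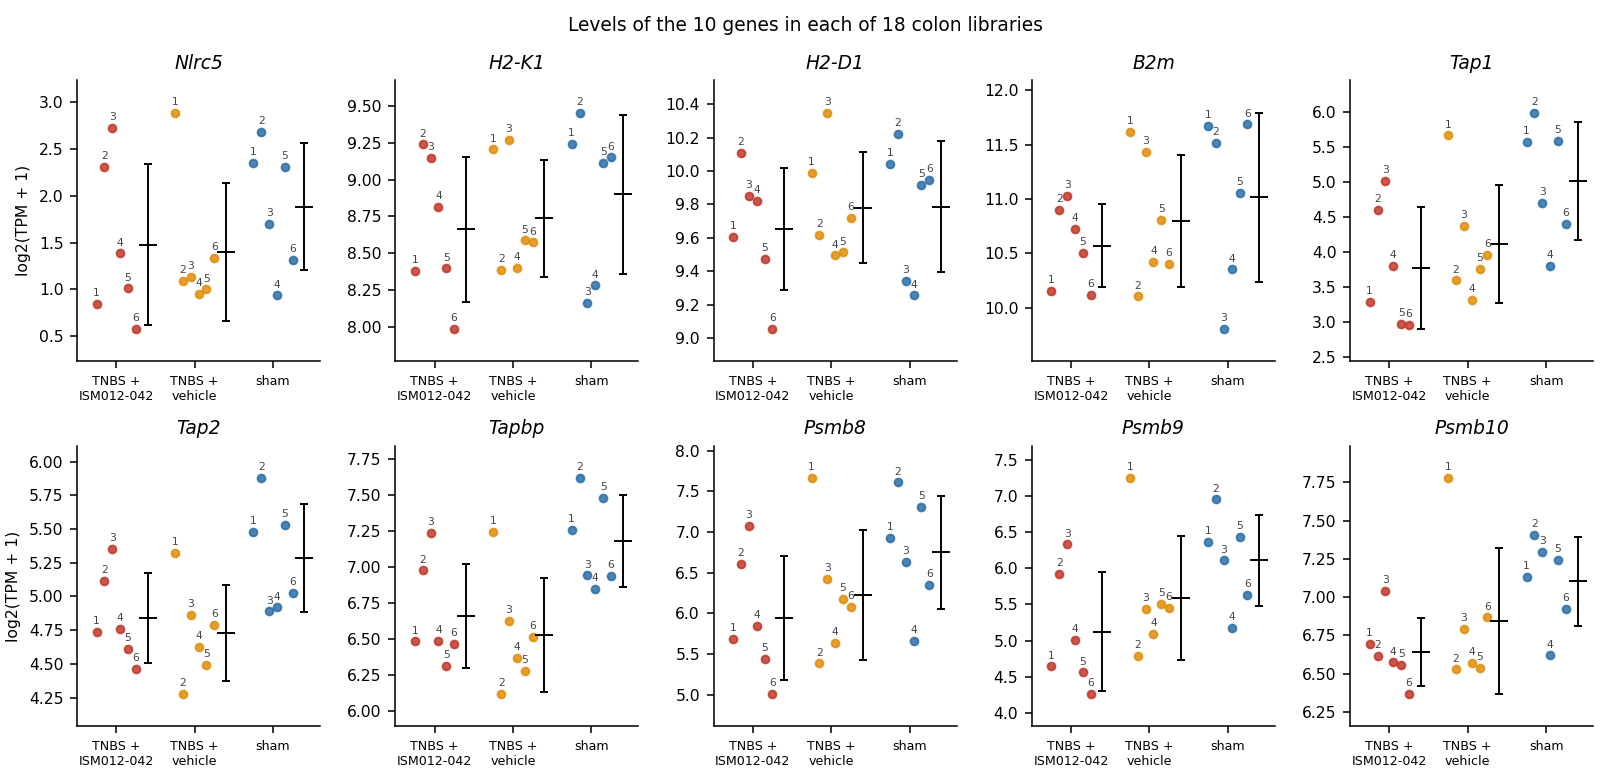
Levels of the 10 genes as log2(TPM + 1) in each library, with ISM012-042, vehicle and sham colons from left to right; digits are replicate numbers, and bars give the mean and SD of 6 libraries. The groups overlap for every gene, vehicle library 1 stands above the rest of its group for Psmb9 at 151 TPM, and the sham libraries spread from 895 to 3298 TPM for B2m.

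Vehicle was set against sham to ask what TNBS colitis did to the route. None of the 10 genes passed the test, against 4.13% of all 14129 genes called lower and 0.326% called higher. An unadjusted p under 0.05 belonged to 2 of the 10, Tapbp and Tap2, where 14.9% of all genes were lower at that level. All 10 fold changes were negative, as were 58.7% of those of all genes, although that of H2-D1 turned positive under median-ratio scaling, without mitochondrial genes and with either covariate. The median of the 10 fold changes was -0.26 with Hoxb13 as a covariate, where that of all genes was 0.04. In the main fit it was -0.50, against -0.07 over all genes (log2 of TPM + 1). Tapbp came nearest, with a log2 fold change of -0.65 ± 0.20 (SE, 95% interval -1.08 to -0.23, adjusted p = 0.0756 in limma), followed by Tap2 at -0.56 ± 0.21 (adjusted p = 0.140) and Tap1 at -0.90 ± 0.45 (adjusted p = 0.306). These peptide transport and loading genes had the lowest adjusted p values of the 10. The immunoproteasome genes stood at -0.53 ± 0.42 for Psmb9, -0.52 ± 0.40 for Psmb8 and -0.26 ± 0.20 for Psmb10 (adjusted p from 0.539 to 0.550), and Nlrc5 at -0.48 ± 0.41 (adjusted p = 0.580). The heavy and light chains were nearest to 0, at -0.22 ± 0.33 for B2m, -0.16 ± 0.26 for H2-K1 and -0.01 ± 0.20 for H2-D1 (adjusted p from 0.783 to 0.990). The interval for H2-D1 ran from -0.43 to 0.41 and that for Tap1 from -1.85 to 0.05, so changes of either sign for H2-D1, and a fall of up to 1.85 for Tap1, were not excluded. Tapbp passed without vehicle library 1 (-0.80, adjusted p = 0.0159 in limma) and with the mitochondrial share as a covariate (-0.60, adjusted p = 0.0413 in limma). With that covariate 1267 of all 14129 genes were called lower, against 584 in the main fit. Tapbp also passed with libraries weighted by how closely they follow their group (-0.77, adjusted p = 0.0350 in limma, with 3.93% of all genes called lower). With median-ratio scaling none of the 10 passed, against 7.23% of all genes called lower. In a bulk sample, fewer cells that express a gene and less RNA of it per cell cannot be told apart. Summed neutrophil markers were above every sham library in all 6 vehicle libraries. Median log2 fold changes were -0.40 for epithelial, -0.68 for smooth muscle and -0.27 for plasma cell markers, and none of these genes passed. Every other list of cell type markers had a positive median. The part of any of these cells in the differences was not tested.

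ISM012-042 was set against vehicle to ask what the compound did in inflamed colon. None of the 10 genes passed, and neither did any other gene, so that the share called was 0% in each direction, although 2688 genes had an unadjusted p under 0.05 and the lowest adjusted p of all genes in limma was 0.233. None of those 2688 was among the 10, and 0.127% of all genes were lower at that level. Fold changes were negative for 7 of the 10 genes, against 7.91% of all genes, and their median was -0.16 against 0.30 for all genes. The most negative was Psmb9 at -0.47 ± 0.42 (adjusted p = 0.454), then Tap1 at -0.34 ± 0.45 and Psmb8 at -0.29 ± 0.40 (adjusted p = 0.609 and 0.622). B2m stood at -0.23 ± 0.33, Psmb10 at -0.20 ± 0.20, H2-D1 at -0.13 ± 0.20 and H2-K1 at -0.08 ± 0.26 (adjusted p from 0.489 to 0.842). Positive values were those of Tapbp at 0.14 ± 0.20, Tap2 at 0.11 ± 0.21 and Nlrc5 at 0.08 ± 0.41 (adjusted p from 0.645 to 0.900), and these 3 turned negative under median-ratio scaling, at -0.18, -0.20 and -0.12. That scaling moved the median of all genes to 0.02 and that of the 10 genes to -0.48. With quantile normalization the medians were -0.22 for the 10 genes and 0.02 for all genes, and with array weights -0.26 and 0.08. The median of the 10 genes was below that of all genes in each of these, by differing amounts. The interval of Psmb9 ran from -1.34 to 0.41 and that of Psmb10 from -0.62 to 0.21.

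Between ISM012-042 and sham colons, a comparison that shares its ISM012-042 libraries and its sham libraries with those above, again none of the 10 genes passed, against 0.871% of all genes called lower and 0.545% called higher. All 10 fold changes were negative, against 22.9% of all genes, with a median of -0.45 against 0.21. Adipocyte markers (6 genes) summed to 159 to 3588 TPM in ISM012-042 libraries, against 24.01 to 2471 TPM in sham libraries, and macrophage and monocyte markers (9 genes) to 156 to 700 TPM, against 111 to 180 TPM. The median log2 fold changes of these lists were 2.59 and 0.87. The median was 3.25 for neutrophil, 0.92 for mesothelial, -0.25 for smooth muscle and -0.18 for epithelial markers. Every other list of cell type markers had a positive median, and no gene of any list passed. The part of any of these cells in the differences of the 10 genes was not tested. The transport and loading genes stood at -1.24 ± 0.45 for Tap1 (95% interval -2.19 to -0.28, adjusted p = 0.161), -0.52 ± 0.20 for Tapbp (0.182) and -0.45 ± 0.21 for Tap2 (0.233). Among the immunoproteasome genes Psmb9 stood at -0.99 ± 0.42 (adjusted p = 0.204), Psmb8 at -0.81 ± 0.40 (0.255) and Psmb10 at -0.46 ± 0.20 (0.211). Unadjusted p values under 0.05 belonged to 5 of the 10 genes, Tap1, Tapbp, Tap2, Psmb9 and Psmb10, where 4.44% of all genes were lower at that level. B2m was at -0.44 ± 0.33, Nlrc5 at -0.41 ± 0.41, H2-K1 at -0.24 ± 0.26 and H2-D1 at -0.13 ± 0.20 (adjusted p from 0.407 to 0.685). With the library weights 8 of the 10 passed, all but H2-K1 and H2-D1, with adjusted p from 0.00145 to 0.0441 and 6.64% of all genes called lower. The weights ranged from 0.146 for vehicle library 5 to 4.63 for sham library 2, the library with the highest Tap1, Tap2, Tapbp and H2-K1. With median-ratio scaling Tapbp alone passed, at -0.73 (adjusted p = 0.0457), and 4.38% of all genes were called lower.

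**Figure D2:**
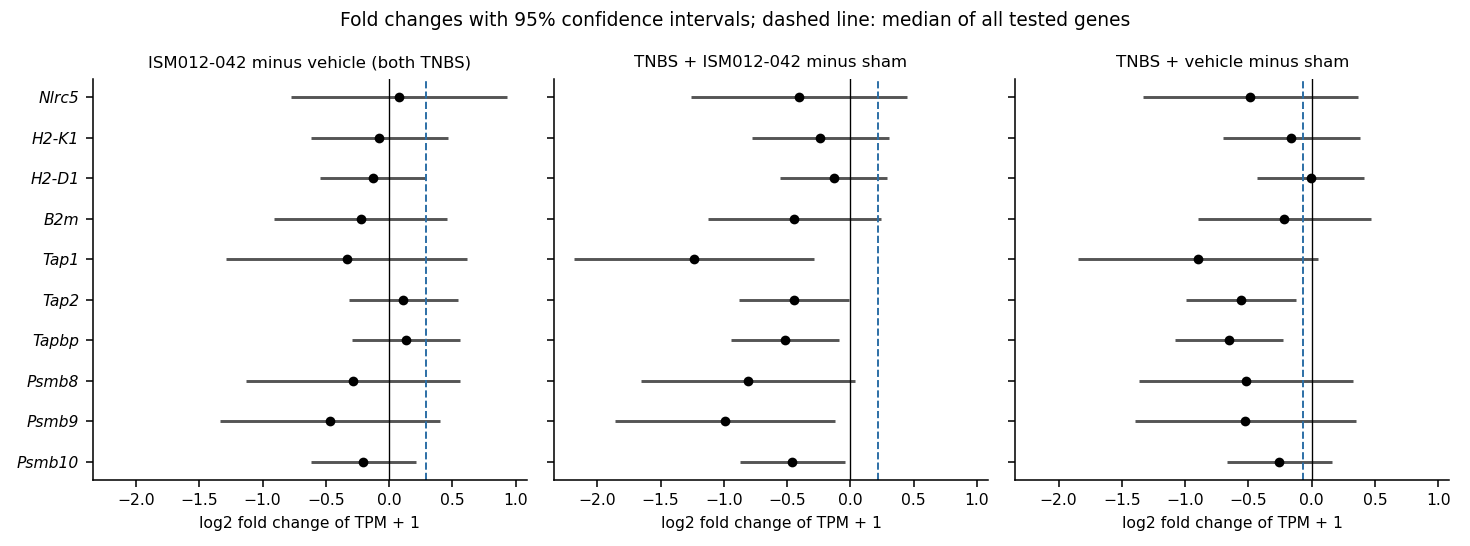
Log2 fold changes of TPM + 1 with their 95% confidence intervals for each gene in the 3 comparisons, 6 libraries per group. Dashed lines mark the median of all tested genes, at -0.07 for vehicle against sham, 0.30 for ISM012-042 against vehicle and 0.21 for ISM012-042 against sham; no gene passed the adjusted test in any panel.

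Because each inducible subunit replaces a constitutive one, the ratio of the 2 TPM values within a library measures the balance between immunoproteasome and constitutive proteasome transcripts, and the library total cancels out of it. Psmb5 had a median of 92.3 TPM in ISM012-042 colons, 98.9 TPM in vehicle colons and 83.9 TPM in sham colons, Psmb6 137, 143 and 117 TPM, and Psmb7 140, 137 and 124 TPM, and none of the 3 passed the test in any comparison. The Psmb10 over Psmb7 ratio was 0.565, 0.705 and 0.909 (lowest, median, highest) in ISM012-042 colons, 0.470, 0.995 and 1.48 in vehicle colons and 0.912, 1.17 and 1.72 in sham colons. Every ISM012-042 library thus lay below every sham library, by a narrow margin at the edge, whereas the vehicle libraries overlapped with both groups. The Psmb9 over Psmb6 ratio was 0.134, 0.216 and 0.578 in ISM012-042 colons, 0.151, 0.328 and 0.991 in vehicle colons and 0.385, 0.614 and 1.05 in sham colons. For Psmb8 over Psmb5 it was 0.359, 0.633 and 1.36 in ISM012-042 colons, 0.309, 0.939 and 1.73 in vehicle colons and 0.723, 1.25 and 2.28 in sham colons.

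Against sham, the Psmb10 over Psmb7 ratio fell by 0.72 ± 0.18 on the log2 scale in ISM012-042 colons (two-sided exact permutation p = 0.00216, the lowest possible with 6 against 6, and 0.0195 when adjusted for 9 tests). The Psmb9 over Psmb6 ratio fell by 1.30 ± 0.39 (exact p = 0.00866, adjusted 0.0390). The Psmb8 over Psmb5 ratio differed by -0.997 ± 0.358 and did not pass (exact p = 0.0260, adjusted 0.0779). These differences are not those of the inducible subunits alone. In the same comparison the constitutive subunits stood at 0.25 ± 0.22 for Psmb7, 0.29 ± 0.18 for Psmb6 and 0.18 ± 0.19 for Psmb5. Psmb10 itself stood at -0.46 ± 0.20 and Psmb9 at -0.99 ± 0.42, and neither passed. Leaving out ISM012-042 library 1 or 6 ended the Psmb10 over Psmb7 call (adjusted exact p = 0.0779 in both). The differences were then -0.69 and -0.67, and the remaining ISM012-042 libraries still lay below every sham library. The Psmb9 over Psmb6 call was lost without ISM012-042 library 1, 4, 5 or 6 and without sham library 1, 2, 3 or 5, at differences between -1.31 and -1.14 and adjusted exact p between 0.0682 and 0.0877. The Psmb8 over Psmb5 ratio passed without ISM012-042 library 3 (-1.21, adjusted exact p = 0.0195) or sham library 4 (-1.17, adjusted exact p = 0.0390). In vehicle against sham colons the 3 ratios differed by -0.70 ± 0.46 for Psmb9 over Psmb6, -0.66 ± 0.46 for Psmb8 over Psmb5 and -0.35 ± 0.29 for Psmb10 over Psmb7 (adjusted exact p = 0.300 for each). In ISM012-042 against vehicle colons they differed by -0.60 ± 0.51, -0.33 ± 0.47 and -0.37 ± 0.28 in the same order (adjusted exact p = 0.300, 0.496 and 0.300). The ISM012-042 and vehicle groups were not shown to differ in any of the 3 ratios.

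**Figure D3:**
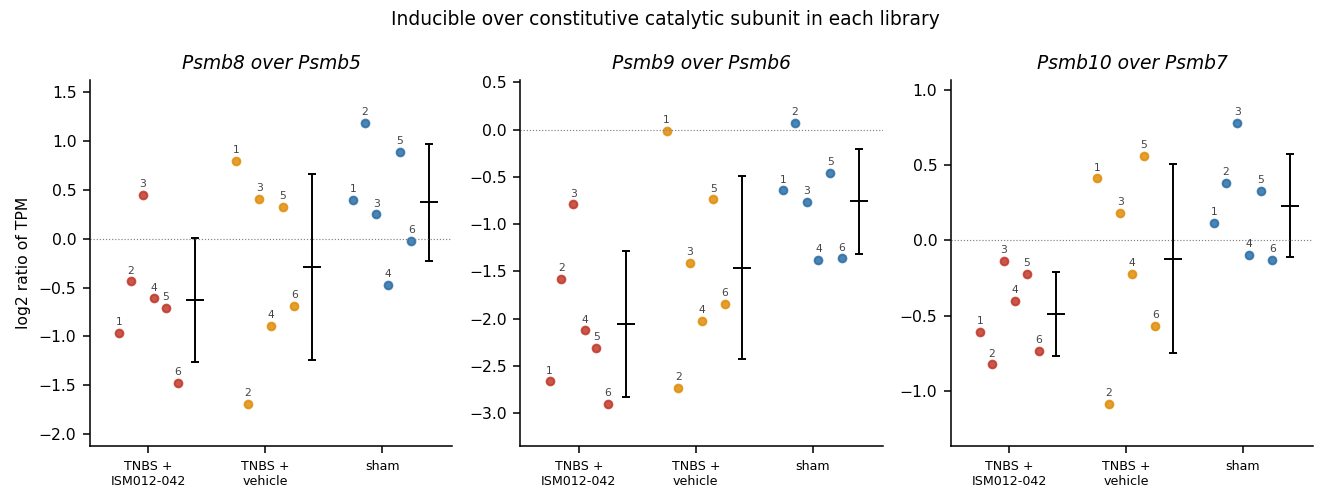
Log2 ratio of each inducible to its constitutive catalytic subunit in each library, with ISM012-042, vehicle and sham colons from left to right; digits are replicate numbers, bars give mean and SD of 6 libraries, and the dotted line marks equal levels. For Psmb10 over Psmb7 the ISM012-042 libraries (ratio up to 0.909) lie below the sham libraries (ratio from 0.912).

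Several of the genes varied widely among libraries of 1 group. In sham colons, which had no TNBS, the SD of log2(TPM + 1) was 0.84 for Tap1, 0.78 for B2m, 0.70 for Psmb8, 0.68 for Nlrc5 and 0.63 for Psmb9, where the median over all tested genes was 0.25. Tapbp was less variable there, at 0.32. In vehicle colons the median over all genes was 0.45, and H2-D1 (0.33), Tap2 (0.36), Tapbp (0.39) and H2-K1 (0.40) lay below it. Tap1 spanned 4.80-fold among the 6 sham libraries, 5.55-fold among the vehicle libraries and 4.59-fold among the ISM012-042 libraries. Psmb10 was steadier than Tap1, with an SD of 0.22 in ISM012-042 colons, 0.48 in vehicle colons and 0.29 in sham colons. In vehicle colons it still lay above the median over all genes.

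The genes were high or low together in the same libraries. All 10 stood above their own 18-library median in ISM012-042 library 3, vehicle library 1 and sham libraries 1, 2 and 5, and none did in ISM012-042 libraries 1, 5 and 6 and vehicle libraries 2 and 4. The mean z-score of the 10 genes was highest in sham library 2 (1.60), followed by vehicle library 1 (1.42), and lowest in ISM012-042 library 6 (-1.39). Vehicle library 1 held 218 TPM of Psmb10, where the next vehicle library held 116 TPM, and 6.40 TPM of Nlrc5, where the next held 1.52 TPM. ISM012-042 library 3 had the highest summed B cell markers (548 TPM, where the others ranged from 5.02 to 114 TPM) and the highest summed T and NK cell markers (95.3 TPM, against at most 32.1 TPM in the others). In vehicle library 1 these sums were 26.0 and 15.8 TPM, and in sham library 2 they were 76.3 and 15 TPM. The part of lymphocytes in the levels of the 10 genes was not tested. Vehicle library 2 had the highest neutrophil marker sum of all, 27393 TPM, and none of the 10 genes above its median there.

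**Figure D4:**
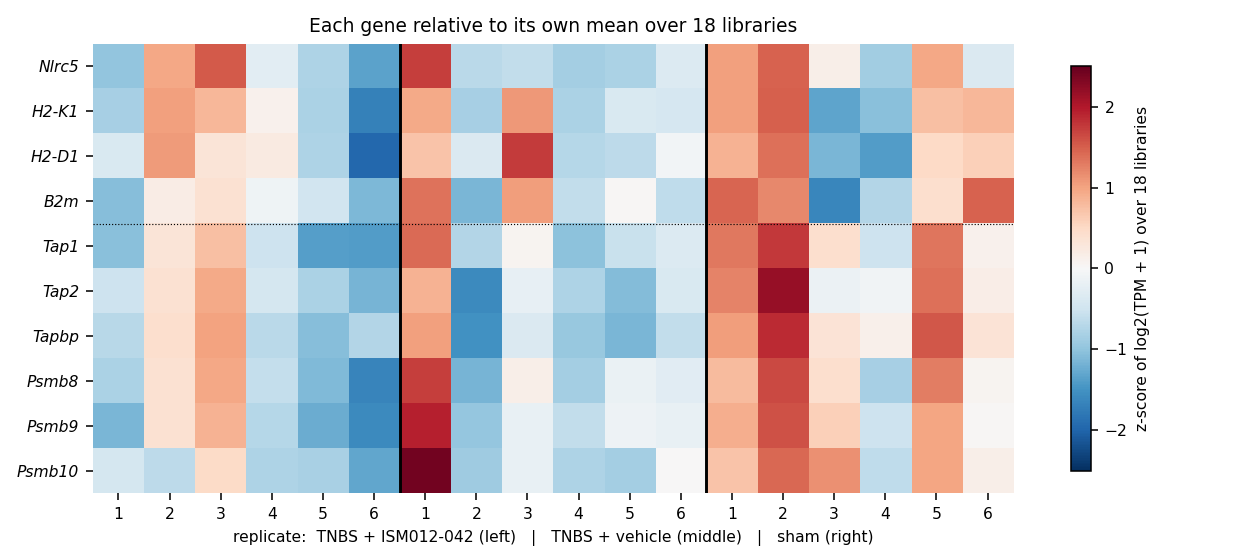
Each gene's log2(TPM + 1) as a z-score over the 18 libraries, one column per library, with ISM012-042 on the left, vehicle in the middle and sham on the right. Whole columns are high or low, as in vehicle library 1 (mean z-score 1.42) and ISM012-042 library 6 (-1.39), and sham library 3 is low for B2m at 895 TPM while its Psmb10 is high at 156 TPM.

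Across the 18 libraries the 45 pairs of genes had Pearson's r of log2(TPM + 1) between 0.48 and 0.98, with a median of 0.81, and between 0.46 and 0.98 with a median of 0.83 after the group means were removed. These are descriptions over libraries that share a TPM total and the same tissue mixture. The heavy and light chains had r between 0.81 and 0.95 in their 3 pairs, and the other 7 genes had r between 0.78 and 0.98 in their 21 pairs. Psmb8 and Psmb9 had the highest r, 0.98, followed by Tap2 with Tapbp and Tap1 with Psmb8, at 0.97 each. Tap1 and Psmb9, whose promoter windows overlap, had an r of 0.96, and Nlrc5 with Tap1 0.92. Between these sets r ran from 0.48 to 0.80 in 21 pairs, which overlaps at its upper end with the values within the sets, and with group means removed it reached 0.84, above the 0.82 of H2-D1 with B2m. Without the 2 libraries farthest from the median B2m level, sham 3 and sham 6, the r of B2m was 0.88 with Psmb8, 0.87 with Tap1 and 0.86 with Psmb9, above its 0.81 with H2-D1 and below its 0.91 with H2-K1, so the lower r of B2m with these 3 genes rests on those libraries. With Tap2, Nlrc5, Psmb10 and Tapbp the r of B2m was then 0.78, 0.78, 0.77 and 0.74, still below that with H2-D1. In sham library 3 B2m at 895 TPM and H2-K1 at 285 TPM were the lowest of the sham group, while Psmb10 at 156 TPM was the second highest of the group and Psmb9 stood at 68.1 TPM. In that library the mitochondrial share was 42.6%, the highest of the sham group. Vehicle library 3 had H2-D1 at 1303 TPM, the highest of all 18, while its Nlrc5, at 1.19 TPM, lay below the 18-library median of 1.51 TPM.

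**Figure D5:**
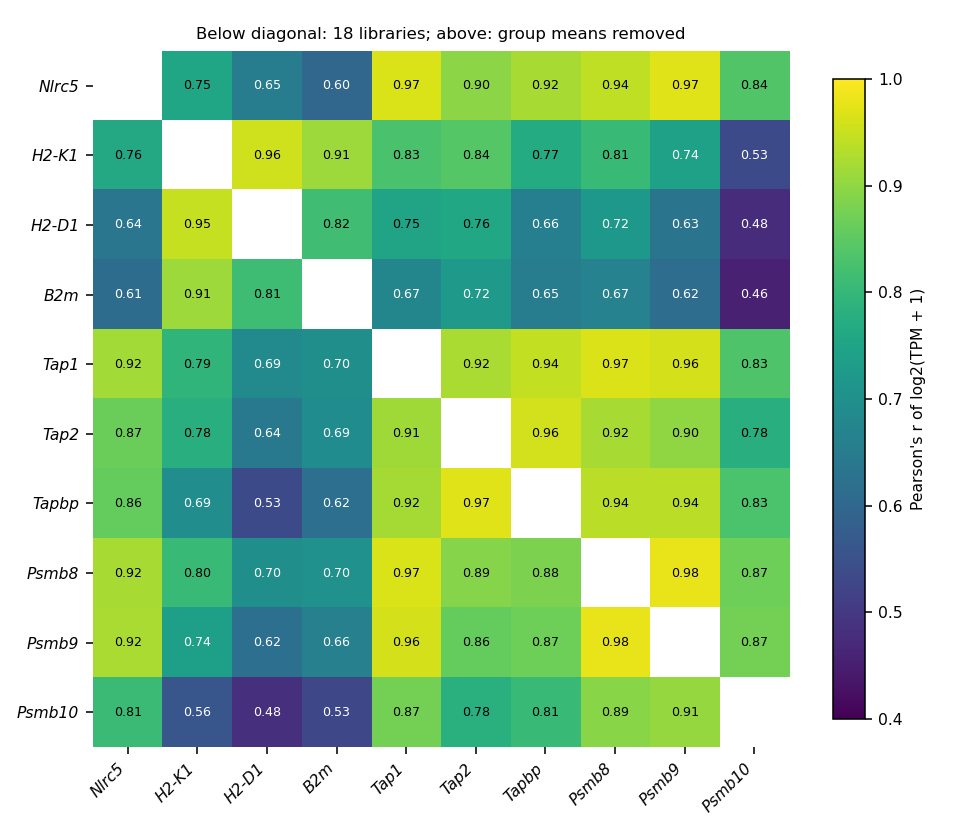
Pearson's r of log2(TPM + 1) for each pair of the 10 genes over 18 libraries, below the diagonal as measured and above it with group means removed. The heavy and light chains (r from 0.81 to 0.95) and the other 7 genes (0.78 to 0.98) are shown beside each other, and r between these sets is from 0.48 to 0.80.

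Outside the 10 genes, the 5 whose log2 levels followed the mean z-score of the set most closely over the 18 libraries, predicted genes left out, were Psme1 (Pearson's r = 0.94), Il18bp (0.92), Ifi47 (0.90), Ube2l6 (0.89) and H2-Q5 (0.89). Psme1 encodes a subunit of PA28, the activator that caps the proteasome, and its level was 163 TPM at the median in ISM012-042 colons, 156 TPM in vehicle colons and 193 TPM in sham colons. Il18bp encodes a secreted protein that binds interleukin 18, Ifi47 an interferon-inducible GTPase, and Ube2l6 the enzyme that passes on the ubiquitin-like modifier ISG15. None of the 5 passed the test in any comparison. With group means removed their r lay between 0.89 and 0.96.

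The rest of the route was examined through lists of genes. Of 18 class I related heavy chains other than H2-K1 and H2-D1, 4 fell in vehicle against sham colons and none rose, 3 fell and 1 rose in ISM012-042 against sham colons, and none passed in ISM012-042 against vehicle colons. Of all genes 4.13% were called lower and 0.326% higher in vehicle against sham colons, and 0.871% lower and 0.545% higher in ISM012-042 against sham colons. Their median log2 fold changes were -0.53, -0.44 and 0.09 in these comparisons, where those of all genes were -0.07, 0.21 and 0.30. H2-Q1, a heavy chain of the Q region, had 43.9, 57.9 and 91.8 TPM (lowest, median, highest) in ISM012-042 colons and 42.2, 57.7 and 87.9 TPM in vehicle colons, against 118, 144 and 167 TPM in sham colons. Neither colitis group overlapped with the sham group, whereas 1.91% of all genes lay wholly below it in vehicle colons and 1.05% in ISM012-042 colons. H2-Q1 fell by 1.22 ± 0.21 in ISM012-042 colons (adjusted p = 0.00607 in limma) and by 1.25 ± 0.21 in vehicle colons (adjusted p = 0.00363), and it passed in all 31 alternative analyses of each. Of the stretches of 75 bases in H2-D1, 5.42% also occur in H2-Q1.

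H2-Bl had 1.28, 3.26 and 4.86 TPM in ISM012-042 colons and 1.34, 2.21 and 4.48 TPM in vehicle colons, against 5.07, 6.52 and 7.33 TPM in sham colons. It fell by 0.89 ± 0.22 in ISM012-042 colons (adjusted p = 0.0451 in limma, passing in 15 of 31 alternatives) and by 1.13 ± 0.22 in vehicle colons (adjusted p = 0.00712, 31 of 31). H2-T24 had medians of 4.43 TPM in ISM012-042 colons, 4.90 TPM in vehicle colons and 27.8 TPM in sham colons, and the groups overlapped since the sham libraries reached down to 6.14 TPM. It fell by 2.19 ± 0.52 in ISM012-042 colons (adjusted p = 0.0411, 18 of 31) and by 2.06 ± 0.52 in vehicle colons (adjusted p = 0.0296, 22 of 31). The fourth gene that fell in vehicle colons, H2-Q10, is named after its value was seen, at -0.91 ± 0.25 (adjusted p = 0.0431, 16 of 31). Fcgrt encodes the receptor that carries IgG and albumin and pairs with B2m as a class I molecule does. Its median was 74.6 TPM in ISM012-042 colons, 54.2 TPM in vehicle colons and 41.8 TPM in sham colons, and it rose by 0.77 ± 0.18 in ISM012-042 against sham colons (adjusted p = 0.0325, 19 of 31).

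Among 17 transcription factors of class I genes, 5 fell in vehicle against sham colons, 2 fell in ISM012-042 against sham colons and none rose in either, against 4.13% and 0.871% of all genes called lower. The median over the 17 was -0.19 and 0.17 in these comparisons, where that of all genes was -0.07 and 0.21. Irf9, the DNA-binding part of the complex through which type I interferon acts, had 13.7, 19.4 and 25 TPM (lowest, median, highest) in ISM012-042 colons and 18.3, 21.9 and 33.6 TPM in vehicle colons, against 34.5, 63.0 and 75.6 TPM in sham colons. No library of either colitis group reached the sham range. Irf9 fell by 1.54 ± 0.22 in ISM012-042 colons (adjusted p = 0.00172 in limma) and by 1.22 ± 0.22 in vehicle colons (adjusted p = 0.00510), in all 31 alternatives of each. Its partner Stat2 had medians of 14.7 TPM in ISM012-042 colons, 16.2 TPM in vehicle colons and 53.9 TPM in sham colons, and fell by 1.60 ± 0.32 in ISM012-042 colons (adjusted p = 0.0166, 29 of 31 alternatives, lost without ISM012-042 library 1 at 0.0535 and without sham library 5 at 0.0509) and by 1.43 ± 0.32 in vehicle colons (adjusted p = 0.0170, 31 of 31).

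Irf1, a factor that interferon-gamma induces and that acts on class I genes, had 67.0, 82.1 and 143 TPM in ISM012-042 colons, 54.0, 79.2 and 237 TPM in vehicle colons and 136, 190 and 232 TPM in sham colons. It differed by -1.05 ± 0.29 in ISM012-042 against sham colons, which did not pass (adjusted p = 0.0759 in limma), and fell by 1.05 ± 0.29 in vehicle against sham colons (adjusted p = 0.0452), a call kept in 13 of 31 alternatives. Irf2 fell by 0.73 ± 0.19 in vehicle colons (adjusted p = 0.0357, 21 of 31), and so did Rfxank, a subunit of the RFX complex on MHC promoters, by 0.55 ± 0.15 (adjusted p = 0.0424, 16 of 31; named after its value was seen). Rfx5, the DNA-binding RFX subunit, had medians of 7.40 TPM in ISM012-042 colons, 5.28 TPM in vehicle colons and 6.15 TPM in sham colons, and passed in no comparison. Ciita, the transactivator of class II genes, had medians of 1.80, 1.43 and 2.09 TPM in the same order and did not pass either. Ciita reached 24.8 TPM in 1 ISM012-042 library, against at most 5.58 TPM in vehicle colons and 3.20 TPM in sham colons.

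Of 9 tested interferon genes and receptors, out of 11 listed, Ifngr1, the ligand-binding chain of the interferon-gamma receptor, fell in vehicle colons by 0.72 ± 0.16 (adjusted p = 0.0173 in limma, 30 of 31 alternatives). Its level was 105, 175 and 193 TPM (lowest, median, highest) in vehicle colons, against 193, 275 and 306 TPM in sham colons. No other gene of that list passed. No gene passed in any comparison among the 9 genes of peptide trimming and loading, the 5 of PA28 and proteasome assembly, the 3 constitutive catalytic subunits, the 11 other subunits of the 20S core and the 17 of the 19S regulatory particle. The median over the 19S particle was 0.38 in ISM012-042 against sham colons and 0.20 in vehicle against sham colons, while all genes had 0.21 and -0.07. Of 10 class I receptors and cytotoxic effectors only 6 were expressed enough to test, and none passed. Cd8a, a chain of the co-receptor through which T cells read class I, had medians of 1.52 TPM in ISM012-042 colons, 1.11 TPM in vehicle colons and 0.503 TPM in sham colons. Ncr1, a receptor of natural killer cells, had medians of 0.820 TPM in ISM012-042 colons, 0.539 TPM in vehicle colons and 1.63 TPM in sham colons, and had the lowest adjusted p of the list in vehicle against sham colons (-0.69 ± 0.21, adjusted p = 0.0701 in limma).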

How the data were processed

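Per the labels' protocols, total RNA of colon was extracted with TRI Reagent and RNeasy columns. TPM, computed by the authors, were deposited for 35976 symbols in 18 libraries; the submitters' processing notes name DRAGEN 4.0.3 and mm10 with no role. The sources used here do not give the counter, annotation, read length or strandedness. Since TPM sum to the same total in every library, an abundant transcript class lowers all other values, and depth cannot be recovered. Groups and replicate numbers came from the sample titles, and TNBS from the design text. The table held 27 symbols converted to dates and 2 duplicated symbols.

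Values were taken as log2(TPM + 1), a scale that understates the change of low genes. Genes with 1 TPM or more in at least 6 libraries were tested in limma 3.58.1 (R 4.3.3), all 18 libraries in 1 fit, with trended, robust empirical Bayes, no covariate and Benjamini-Hochberg adjustment over 14129 genes at 0.05. "Passed", "called", "rose" and "fell" refer to that adjusted p. Subunit ratios were tested by two-sided exact permutation of the libraries, adjusted over 9 tests. Fold changes are given ± SE. The fit was tested on simulated data. The 10 genes, the gene lists, the ratios and the alternatives were chosen with earlier results of these data known, so none is independent support. Genes beyond the 10 were named by rule: the 3 constitutive subunits, Irf1, Ciita and Rfx5 (a further gene is not reported here), up to 3 genes of each list by unadjusted p against sham in each colitis group, and the 5 genes most correlated with the mean z-score, with the exceptions stated. Not every gene so chosen is described. Alternatives numbered 13 beside leaving out each of the 18 libraries: array weights, Hoxb13 or the mitochondrial share as a covariate, a replicate block, a fit of just the 2 groups, quantile normalization, median-ratio scaling, mitochondrial genes removed, empirical Bayes with neither trend nor robust setting, pseudocounts of 5 and 0.1, and a minimum of 5 TPM or no minimum. Promoter windows and coordinates (1-based) are from RefSeq on GRCm38.p6, the assembly of mm10, and transcripts from GENCODE vM21.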

Additional observations from a re-analysis of the deposited data

Results flagged for a closer look

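In the vehicle group, library 1 stood apart from the other 5 for 6 of the 10 genes, by a gap to the nearest library that was large against the range of the group (past Dixon's 95% critical value for 6 values). Nlrc5 was 6.40 TPM in it, where the next library had 1.52 TPM. Tap1 was 49.6 TPM, where the next had 19.6 TPM, and Tapbp 151 TPM, where the next had 97.9 TPM. The immunoproteasome genes were at 202 TPM for Psmb8 (next 84.9 TPM), 151 TPM for Psmb9 (next 44.4 TPM) and 218 TPM for Psmb10 (next 116 TPM). Of the 39 groups of 6 values examined, for the 10 genes and the 3 ratios, none of the others was marked. Chance marks about 1 in 20 where values are normally distributed, which was not tested for TPM. These 6 genes vary together, so they are not separate events. The heavy and light chains of that library were not set apart, with B2m at 3137 TPM where vehicle library 3 had 2761 TPM.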

How the results depend on the processing

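Of 927 alternative values of the 10 genes, 882 kept their direction and their side of the threshold, 33 changed sign without passing, and 12 passed where the main analysis, which called none, did not. The number of the 10 genes called lower in ISM012-042 against sham colons was 0, and became 1 with median-ratio scaling and 8 with array weights; in vehicle against sham colons it was 0, and became 1 with array weights and 1 with the mitochondrial share as a covariate, and ranged from 0 to 1 when single libraries were left out. That gene was Tapbp each time it was 1. Every other count of called members was 0 in all alternatives. Of all 14129 genes, 1267 were called lower in vehicle against sham colons with the mitochondrial share as a covariate, and 555 with array weights. In ISM012-042 against sham colons 619 were called lower with median-ratio scaling and 938 with array weights.

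Signs changed for H2-D1 in vehicle against sham colons, from -0.01 to 0.098 with median-ratio scaling, 0.102 without mitochondrial genes, 0.0044 with the Hoxb13 covariate and 0.036 with the mitochondrial share, and over -0.12 to 0.080 when single libraries were left out. In ISM012-042 against vehicle colons they changed for Nlrc5, to -0.12 with median-ratio scaling, -0.20 with quantile normalization, -0.033 without mitochondrial genes, -0.32 with array weights, -0.045 with the Hoxb13 covariate and -0.15 with the mitochondrial share (left-out libraries: -0.17 to 0.37). They also changed for Tap2 (-0.20, -0.15, -0.042 and -0.041 with median-ratio scaling, quantile normalization, mitochondrial genes left out and array weights) and for Tapbp (-0.18, -0.038, -0.022 and -0.061 in that order). H2-K1 ranged from -0.19 to 0.059 over left-out libraries. The causes were not tested.

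Left-out libraries gave -0.79 to -0.61 for Psmb10 over Psmb7, -1.56 to -1.14 for Psmb9 over Psmb6 and -1.21 to -0.83 for Psmb8 over Psmb5 in ISM012-042 against sham colons. Pairing libraries by replicate number kept the differences at -0.72 and -1.30 with an adjusted p of 0.141 from an exact test over 64 sign flips, where both stood at the smallest p that the flips allow and could not have passed, so this says nothing of their stability; in the limma fit with the replicate block no member was called. The labels do not state whether the numbers mark pairs. Residuals of same-numbered libraries correlated between -0.38 and 0.61, over 0.1 in 1, 2 and 3 of 6 pairs in the 3 comparisons. In ISM012-042 against sham colons their median was 0.09, against -0.10 for libraries of unlike number. For vehicle against sham colons these medians were -0.11 and 0.02, and for ISM012-042 against vehicle colons 0.03 and 0.03. With 6 pairs these values cannot decide whether pairs exist. Nlrc5 could not be tested at a TPM minimum of 5.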
